A study of Homo sapiens with 6 samples.

Results

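The HOX genes are 39 protein-coding genes in 4 chromosomal clusters, HOXA, HOXB, HOXC and HOXD. They were found here by symbol, as HOXA, HOXB, HOXC or HOXD followed by a number, among the 40895 NCBI gene identifiers of the count files. All 39 were matched. Their mRNA was measured by polyA RNA sequencing in A375SM cells, a human melanoma line selected from A375 for metastasis. There were 3 libraries from cells with a control hairpin RNA (shCtrl) and 3 from cells whose hairpin targets PRAME (shPRAME). PRAME is a cancer-testis antigen known to bind retinoic acid receptors and dampen their activity, and retinoic acid is a classical inducer of HOX genes. All 6 libraries are labelled as genotype WT and as the same batch, the tissue is given as skin, and no untransduced cells are among the samples. The labels do not say how many hairpins were used, how long the cells carried them, or whether libraries of 1 group came from separate transductions, so the p-values reflect no more than how these libraries vary, a spread that may be technical.

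HOX proteins are homeodomain transcription factors that give cells of the embryo their position along the body axis. In each cluster the genes lie in the order in which they are used from head to tail, from number 1 at the 3′ end to number 13 at the 5′ end, and genes of the same number in different clusters form a paralog group. Polycomb complexes hold unused parts of a cluster silent, trithorax complexes keep used parts active, retinoic acid induces the 3′ genes first, and the TALE homeodomain proteins of the PBX and MEIS families bind DNA together with HOX proteins. Adult cells, melanoma cells among them, keep a set of active HOX genes that reflects where their ancestors lay in the body.

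PRAME mRNA, the check of the knockdown, measured 166.4, 163.9 and 164.8 CPM (counts scaled to a common library size by TMM) in the shCtrl libraries and 57.7, 57.8 and 53.8 CPM in the shPRAME libraries, 2.92-fold lower (edgeR adjusted p = 4.85e-17). Libraries held 30842788 to 34107332 counts, which sets the limit of detection in a single library, taken as 3 counts, at 0.0880 to 0.0973 CPM (counting error only). Of 15954 genes tested, 74.4% passed at an adjusted p under 0.05, 37.7% higher and 36.8% lower in shPRAME. The labelled cell type was seen in part of its markers: SOX10 (265.7 ± 7.95 CPM in shCtrl, mean ± SD, n = 3) and MITF (44.6 ± 1.38 CPM) were present, whereas TYR had no count in any library and PMEL, MLANA, TYRP1 and DCT did not pass the filter on low counts. Of the 9 melanocyte markers 4 were tested, of which none rose and 3 fell, and they summed to between 369.8 and 384.9 CPM in shCtrl libraries and between 350.3 and 351.6 CPM in shPRAME libraries.

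HOX genes passed the test at a share near that of all genes, in both directions. Of the 39, 33 passed the filter and were tested, and 24 of these passed the test, 72.7% beside 74.4% of all genes. They split evenly, 12 higher (37.7% of all genes were) and 12 lower (36.8% of all genes were) in shPRAME. At least 2-fold changes were 2 upward (HOXB9 and HOXA13; 10.1% of all genes) and 4 downward (HOXA11, HOXD1, HOXD3 and HOXD4; 8.43% of all genes). The median log2 fold change was -0.15 over the tested HOX genes and 0.01 over all tested genes, and the median size of the change was 0.34 and 0.38. The groups did not overlap at 26 of the 33 genes, where the share over all genes was 76.5%. In such bulk samples fewer cells with a transcript and less of it per cell cannot be told apart. By cluster, 6 of 9 tested HOXB genes rose and 4 of 7 tested HOXD genes fell.

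**Figure D1:**
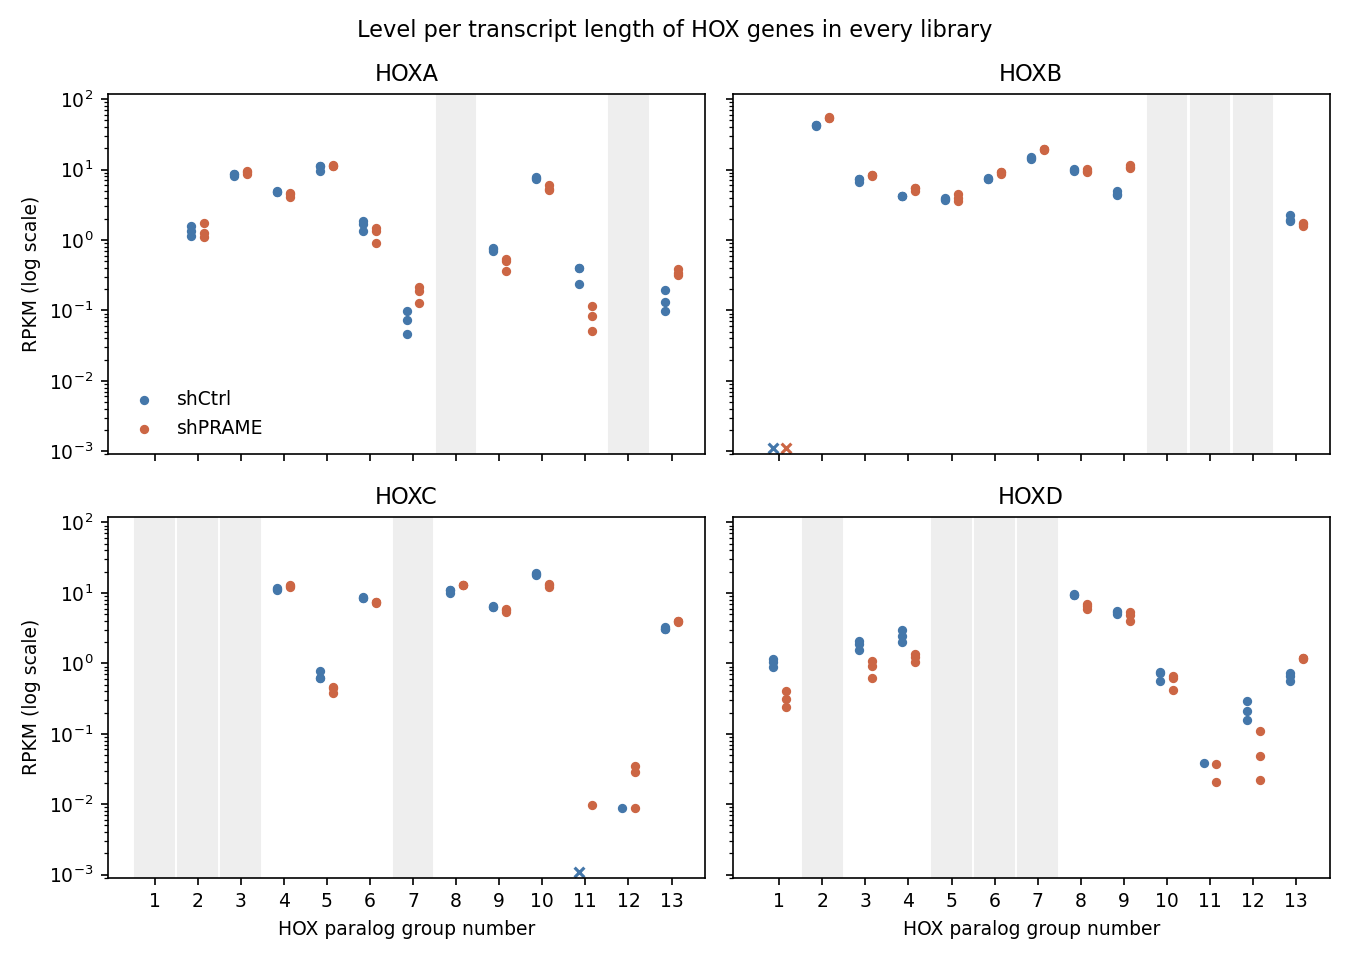
Level of the HOX genes in every library, as RPKM (CPM per kilobase of the longest GENCODE 29 transcript) on a log axis, by paralog group number; blue, shCtrl; red, shPRAME; 3 points per group. Libraries at 0 are left out, a cross marks a group with no count in any library, not every member is drawn, and grey bands mark numbers that do not exist in a cluster; HOXB2 lies highest, at 42.4 RPKM in shCtrl and 54.5 in shPRAME.

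Levels of different genes were compared per transcript length, as RPKM, in control cells first. HOXB2, a gene of the hindbrain programme, was the most abundant at 42.4 ± 0.824 RPKM (mean ± SD, n = 3). HOXC10, a gene of the lumbar body region, followed at 18.4 ± 0.499 RPKM and HOXB7, which has been tied to growth factor expression in melanoma, at 14.6 ± 0.632 RPKM. These 3 levels were separated by more than their SDs, but the next neighbours were not: HOXC4 (11.4 ± 0.383 RPKM), HOXA5 (10.6 ± 0.893 RPKM) and HOXC8 (10.6 ± 0.639 RPKM) lay within their spread of each other. In shPRAME cells HOXB2 (54.5 ± 0.596 RPKM) and HOXB7 (19.3 ± 0.181 RPKM) led. HOXC8 (13.02 ± 0.114 RPKM), HOXC10 (12.9 ± 0.659 RPKM) and HOXC4 (12.5 ± 0.537 RPKM) then stood within their spread of each other. HOXB9 went from rank 17 of 39 to rank 7, and HOXD8 from rank 8 to rank 13.

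Every cluster was in use, with at least 1 nearly silent member in each. Of the 39 genes, 38 had a count somewhere and 31 averaged 1 CPM or more. HOXB1 had no count in any library. HOXC11 had 1 count in all, HOXD11 2 counts in shCtrl and 3 in shPRAME, and HOXC12 1 and 8. HOXD12 counts were 7, 9 and 12 for shCtrl and 2, 5 and 1 for shPRAME, and those of HOXA7 were 5, 3 and 6 and 12, 15 and 9. These 6 genes did not pass the filter on low counts and have no test, although neither HOXD12 nor HOXA7 overlapped between the groups. HOXC11 and HOXC12 lie between 2 expressed genes, HOXC10 and HOXC13, and HOXD11 and HOXD12 between HOXD10 and HOXD13.

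Summed over a cluster, HOXB was higher and HOXD lower in every shPRAME library than in any shCtrl library. The summed level of the 10 HOXB genes was 191.3, 190.1 and 191.7 CPM for shCtrl and 248.3, 244.8 and 239.1 CPM for shPRAME, a ratio of 1.28. That of the 9 HOXD genes was 42.8, 39.7 and 41.1 CPM in shCtrl and 28.8, 31.5 and 28.4 CPM in shPRAME, a ratio of 0.718. HOXC genes summed to 118.3 ± 2.51 and 111.3 ± 2.21 CPM (ratio 0.941) and HOXA genes to 85.7 ± 2.69 and 82.2 ± 3.06 CPM (ratio 0.959). Only the HOXA sums overlapped between the groups (exact permutation test, 2-sided, p = 0.2); the other 3 had p = 0.1, the smallest that 3 libraries against 3 can give, which cannot pass 0.05. The share of HOXB in all HOX counts was 43.8% ± 0.219 in shCtrl and 52.3% ± 0.857 in shPRAME, and that of HOXD 9.44% ± 0.315 and 6.33% ± 0.257. All HOX genes together took from 0.0422% to 0.0433% of a shCtrl library and from 0.0468% to 0.0484% of a shPRAME library.

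**Figure D2:**
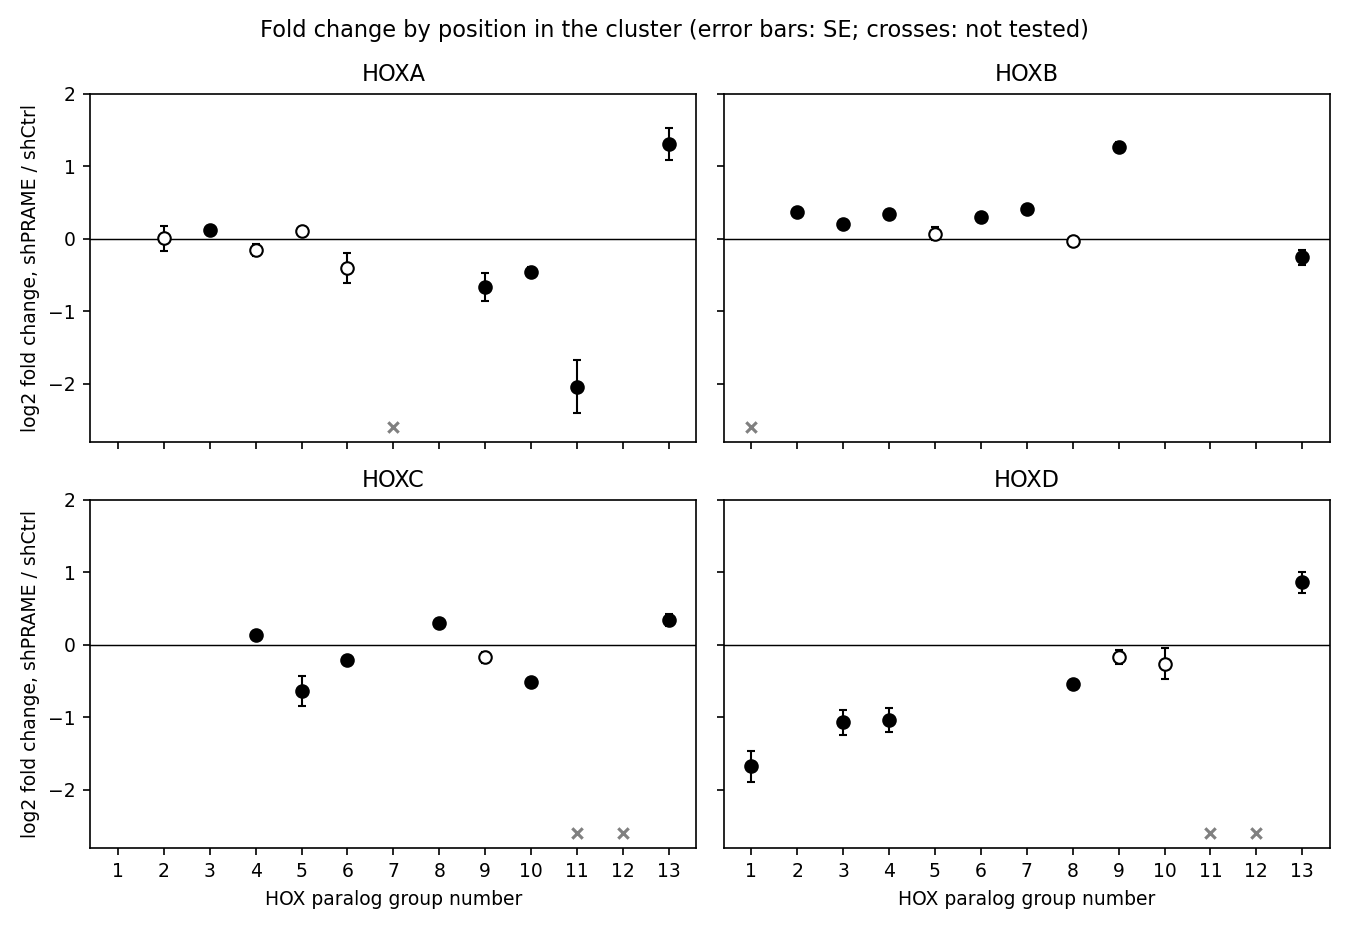
Log2 fold change (shPRAME over shCtrl, edgeR) of tested HOX genes, not every one of them drawn, against their paralog group number, with SE bars; filled points passed at an adjusted p under 0.05, open points did not, and grey crosses mark genes too low to test. Tested HOXD genes lie between -1.67 at number 1 and 0.86 at number 13, HOXB2 to HOXB9 lie at or above zero apart from HOXB8 at -0.04, and HOXA11 (-2.04) stands beside HOXA13 (1.31).

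In HOXD (chromosome 2, 176087487 to 176190907, GRCh38) 4 of the 7 tested genes, HOXD1, HOXD3, HOXD4 and HOXD8, were lower in shPRAME. Of the others 1, HOXD13, was higher and 2 did not pass. Over all genes 36.8% were lower and 37.7% higher. HOXD1, the 3′ gene at 176188668 to 176190907, stood at 2.31, 1.77 and 2.04 CPM in shCtrl and at 0.480, 0.812 and 0.608 CPM in shPRAME. Its groups were far apart (log2 fold change -1.67, SE 0.211, edgeR adjusted p = 1.53e-06). HOXD3, at 176152529 to 176173098, an axial patterning gene that has been tied to integrin expression, read 4.50, 3.67 and 4.96 CPM in shCtrl and 2.59, 2.20 and 1.48 CPM in shPRAME (log2 fold change -1.07, SE 0.174, edgeR adjusted p = 2.85e-05). HOXD4, its neighbour at 176151550 to 176153226 and a hindbrain gene under retinoic acid control, read 4.35, 2.91 and 3.57 CPM and then 1.79, 1.97 and 1.51 CPM (log2 fold change -1.04, SE 0.165, edgeR adjusted p = 2.23e-05). Each of these genes fell at least 2-fold with all libraries, and in each the highest shPRAME library lay below the lowest shCtrl library. With 1 library left out the log2 fold change came as near to 0 as -0.86 for HOXD3 and -0.88 for HOXD4, less than 2-fold.

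The genes further 5′ went both ways. HOXD8, the most abundant HOXD gene, fell from 18.1, 18.0 and 18.4 CPM to 12.5, 13.3 and 11.4 CPM, 1.46-fold (log2 fold change -0.54, edgeR adjusted p = 8.49e-07). HOXD9 stood at 10.5, 9.97 and 9.24 CPM in shCtrl and at 7.39, 9.05 and 9.88 CPM in shPRAME. Its groups overlapped and it did not pass (log2 fold change -0.17, adjusted p = 0.120), except without shPRAME replicate 3 (-0.26, 0.0345). HOXD10 overlapped as well, at 1.48, 1.47 and 1.10 CPM and 1.25, 1.31 and 0.840 CPM (log2 fold change -0.26, adjusted p = 0.270). HOXD13, the most 5′ gene, whose mutations cause fused and extra digits, was the single HOXD gene to rise: 1.27, 1.62 and 1.46 CPM became 2.66, 2.67 and 2.58 CPM (log2 fold change 0.86, SE 0.149, edgeR adjusted p = 5.82e-05). HOXD12, the next gene to HOXD13, went the other way at counts too low to test (7, 9 and 12 in shCtrl, 2, 5 and 1 in shPRAME), or 0.291 ± 0.0920 and 0.0793 ± 0.0595 CPM. The fold changes of the tested genes thus ran from HOXD1 at the 3′ end to HOXD13 at the 5′ end, without a separation of HOXD3 from HOXD4 or of HOXD9 from HOXD10 beyond their SEs, and HOXD12 departs from that order. This order is a description of genes that share libraries and neighbouring sequence, and it was not tested.

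**Figure D3:**
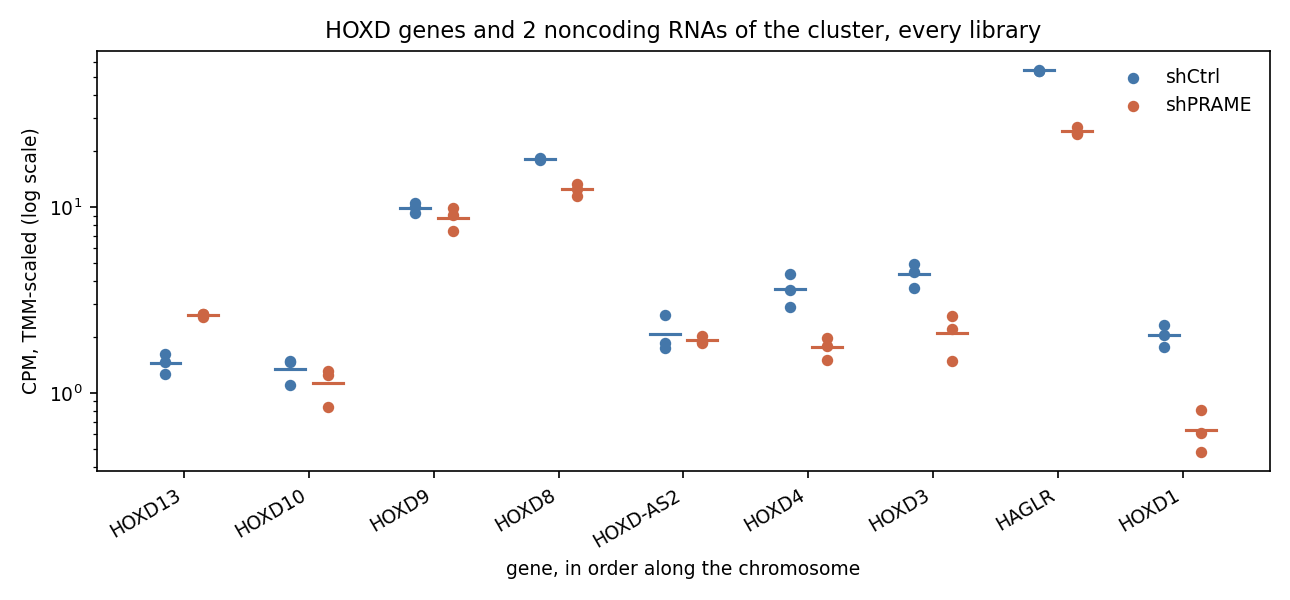
TMM-scaled CPM (log axis) of the tested HOXD genes and of the noncoding RNAs HOXD-AS2 and HAGLR in each library, in order along chromosome 2 from the 5′ gene HOXD13 to the 3′ gene HOXD1; points are libraries, bars are means of 3. The groups separate at HOXD13 (shPRAME above), and at HOXD8, HOXD4, HOXD3, HAGLR and HOXD1 (shPRAME below).

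HAGLR, a noncoding RNA of the HOXD cluster, fell with the 3′ genes. It is read on the minus strand from 176188958 down to 176173189, away from HOXD1, and stood at 54.7, 54.1 and 54.2 CPM in shCtrl and 25.1, 24.9 and 27.1 CPM in shPRAME (log2 fold change -1.08, SE 0.0408, edgeR adjusted p = 1.83e-13). It was 2.11-fold lower, and the groups were far apart. Its span overlaps the start of HOXD1 and, in GENCODE 29, the end of HOXD3, with 5287 counts over the shCtrl libraries beside 199 for HOXD1. Whether the counting used strand is not given in the sources used here, so that HAGLR reads and HOXD1 or HOXD3 reads cannot be told apart where they overlap. HOXD3 and HOXD4 also overlap on the same strand. HOXD-AS2, a noncoding RNA between HOXD8 and HOXD4, did not pass (2.63, 1.87 and 1.75 CPM in shCtrl, 2.02, 1.89 and 1.85 CPM in shPRAME; log2 fold change -0.12, adjusted p = 0.517).

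The start regions of HOXD1, HOXD4, HOXD8 and HOXD13 are shown as sequences near transcripts that moved. That of HOXD3, which also fell, is not printed. Each line is 300 bases, 250 before and 50 after a RefSeq transcript start (GRCh38.p14), 5′ to 3′ on the gene's own strand, with every CG dinucleotide, the site of DNA methylation, in capitals. The windows are chr2:176188418-176188717, plus strand for HOXD1, chr2:176151300-176151599, plus strand for HOXD4, chr2:176129455-176129754, plus strand for HOXD8 and chr2:176092471-176092770, plus strand for HOXD13.
HOXD1: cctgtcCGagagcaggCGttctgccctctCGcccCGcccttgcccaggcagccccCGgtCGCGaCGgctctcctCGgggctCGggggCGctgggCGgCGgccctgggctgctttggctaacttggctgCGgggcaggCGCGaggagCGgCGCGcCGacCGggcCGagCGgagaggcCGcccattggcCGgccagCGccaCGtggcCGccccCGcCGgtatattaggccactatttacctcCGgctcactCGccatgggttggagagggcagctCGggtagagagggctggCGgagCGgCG
HOXD4: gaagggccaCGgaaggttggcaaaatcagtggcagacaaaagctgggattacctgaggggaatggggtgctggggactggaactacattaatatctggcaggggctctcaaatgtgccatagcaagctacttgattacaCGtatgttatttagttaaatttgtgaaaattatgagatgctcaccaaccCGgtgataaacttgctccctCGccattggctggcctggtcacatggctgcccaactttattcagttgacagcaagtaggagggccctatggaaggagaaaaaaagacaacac
HOXD8: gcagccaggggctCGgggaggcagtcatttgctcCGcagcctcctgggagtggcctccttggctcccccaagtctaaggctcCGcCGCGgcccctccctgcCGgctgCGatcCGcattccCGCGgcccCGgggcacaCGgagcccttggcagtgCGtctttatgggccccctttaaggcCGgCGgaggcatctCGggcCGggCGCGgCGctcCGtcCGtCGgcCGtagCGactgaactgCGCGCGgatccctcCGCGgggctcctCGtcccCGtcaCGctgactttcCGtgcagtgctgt
HOXD13: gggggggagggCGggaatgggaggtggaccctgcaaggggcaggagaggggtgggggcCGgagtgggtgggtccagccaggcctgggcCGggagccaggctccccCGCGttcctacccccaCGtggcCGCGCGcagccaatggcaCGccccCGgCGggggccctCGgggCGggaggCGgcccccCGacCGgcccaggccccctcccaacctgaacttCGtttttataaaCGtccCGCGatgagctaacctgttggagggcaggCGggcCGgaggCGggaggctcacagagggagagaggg
HOXD1 holds 36 CG dinucleotides, HOXD8 34, HOXD13 24 and HOXD4 4, while the HOXD3 window that is not printed holds 25. The median was 22 over the 27 windows found for 20 of the HOX genes and 14 over 35116 windows of all genes. HOXD1 and HOXD4, which both fell, hold the most and the fewest of the 4. A HAGLR start window on the opposite strand shares 195 of the 300 bases with the HOXD1 window. The retinoic acid receptor half-site AGGTCA, searched on both strands, was in none of the 27 HOX windows and in 13.8% of all windows of this length. The CCAAT box, searched on both strands as CCAAT, was in 18 of the 27 HOX windows and in 34.6% of all windows. The 27 windows are not independent, since HOXC4 and HOXC5 share one and HOXA3 has 7, and no match says only that these letters are not in the window.

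HOXB (chromosome 17, 48528526 to 48728750) was the cluster with the most rises. Of its 9 tested genes 6 rose, 1 fell and 2 did not pass (37.7% of all genes rose and 36.8% fell). The 6 were all among the 8 genes from HOXB2 to HOXB9, and 5 of them rose by less than 2-fold. HOXB2, the most 3′ of the expressed members, went from 66.1, 64.9 and 67.5 CPM in shCtrl to 84.3, 85.1 and 86.1 CPM in shPRAME (log2 fold change 0.36, SE 0.0299, edgeR adjusted p = 6.66e-09). HOXB3, a hindbrain and neck gene, rose from 30.7, 31.1 and 28.1 to 35.6, 34.7 and 33.6 CPM (log2 fold change 0.21, edgeR adjusted p = 7.60e-04). HOXB4, known for expanding blood stem cells, rose from 15.9, 15.7 and 15.7 to 20.6, 20.7 and 18.8 CPM (log2 fold change 0.34, edgeR adjusted p = 4.91e-05). In all of these the lowest shPRAME library lay above the highest shCtrl library.

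Of the next genes along the cluster 2 rose and 2 did not pass. HOXB5 overlapped between the groups (7.72, 8.08 and 7.46 CPM in shCtrl, 9.09, 8.06 and 7.27 CPM in shPRAME) and did not pass. HOXB6 rose from 14.4, 14.99 and 14.2 to 18.2, 18.1 and 17.1 CPM (log2 fold change 0.29, edgeR adjusted p = 2.62e-04), and HOXB7 from 19.1, 20.2 and 20.8 to 26.2, 26.6 and 26.6 CPM (log2 fold change 0.40, edgeR adjusted p = 1.41e-06). HOXB8 overlapped again, at 18.1, 17.3 and 18.7 CPM and 18.3, 17.6 and 16.8 CPM, with a log2 fold change of -0.04 (SE 0.0583, adjusted p = 0.578). Reads of HOXB3 and HOXB4, whose spans overlap on the same strand, may have been divided between them, and in GENCODE 29 the HOXB3 span also covers HOXB5 and part of HOXB6.

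HOXB9, the next gene 5′ of HOXB8 (48621156 to 48626358), had the smallest adjusted p of any HOX gene. It stood at 11.5, 11.3 and 12.8 CPM in shCtrl and at 30.2, 27.9 and 27.4 CPM in shPRAME, 2.41-fold higher (log2 fold change 1.27, SE 0.0625, edgeR adjusted p = 6.47e-12). It lies next to HOXB8, which did not pass, and in GENCODE 29, though not in RefSeq, the span of HOXB7 (48607227 to 48633572) covers both HOXB8 and HOXB9 on the same strand, so that their counts are uncertain to that extent. HOXB13, the prostate lineage gene that lies apart at the 5′ end of the cluster (48724763 to 48728750), went the other way, from 7.75, 6.58 and 6.39 to 5.92, 5.98 and 5.42 CPM (log2 fold change -0.26, edgeR adjusted p = 0.0282). That call was lost when any of shCtrl replicate 1, shPRAME replicate 1 or shPRAME replicate 3 was left out (adjusted p up to 0.175), with library totals as the only scaling (0.0741) and with DESeq2 (0.115). HOXB-AS1, a noncoding RNA on the opposite strand to HOXB2 and HOXB3, rose from 1.39, 1.56 and 1.65 to 2.72, 2.58 and 3.22 CPM (log2 fold change 0.89, SE 0.151, edgeR adjusted p = 4.65e-05). It had 149 counts over the shCtrl libraries, beside 6440 for HOXB2 and 2918 for HOXB3, and its span overlaps both. Since the use of strand in counting is not given, their reads cannot be told apart where they overlap.

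**Figure D4:**
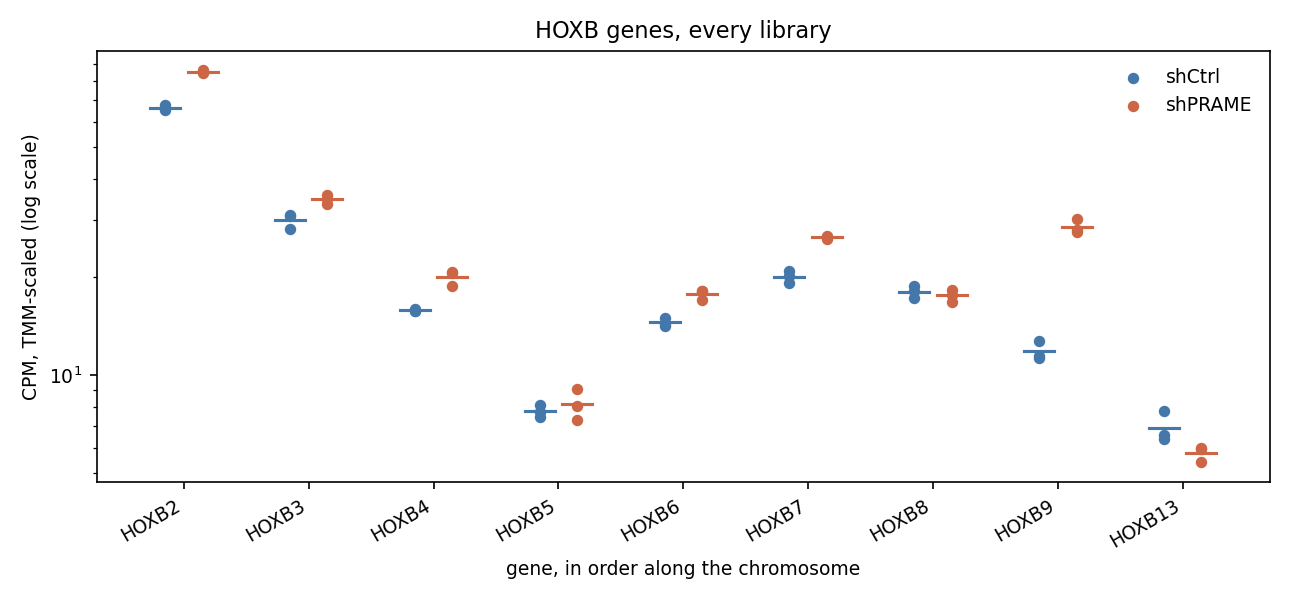
TMM-scaled CPM (log axis) of the 9 tested HOXB genes in each library, in order along chromosome 17 from the 3′ gene HOXB2 to the 5′ gene HOXB13; points are libraries, bars are means of 3. HOXB9 shows the widest gap on this axis, 11.8 CPM in shCtrl and 28.5 CPM in shPRAME, while HOXB5 and HOXB8 overlap.

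In HOXA (chromosome 7) 2 of the 10 tested genes rose, 4 fell and 4 did not pass (37.7% of all genes rose and 36.8% fell). The HOXA changes of at least 2-fold were those of the neighbours HOXA11 and HOXA13 at the 5′ end, in opposite directions. HOXA2, which patterns the second pharyngeal arch, overlapped, at 3.17, 2.63 and 2.24 CPM in shCtrl and 2.18, 3.42 and 2.46 CPM in shPRAME (log2 fold change 0.01, SE 0.174). HOXA3, needed for thymus and parathyroid, read 27.2, 29.8 and 29.8 CPM and 29.8, 31.6 and 32.8 CPM, a log2 fold change of 0.12 that passed narrowly (edgeR adjusted p = 0.0418) although 1 shPRAME library lay within the shCtrl range. HOXA3 lost its call without shCtrl replicate 1, shPRAME replicate 2 or shPRAME replicate 3 (adjusted p up to 0.201) and with DESeq2 (adjusted p = 0.125).

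HOXA4, HOXA5 and HOXA6 did not pass, with log2 fold changes of -0.15, 0.10 and -0.40. HOXA4 read 8.76, 8.35 and 8.50 CPM in shCtrl and 7.20, 7.80 and 8.02 CPM in shPRAME. HOXA5, a lung patterning gene, read 15.9, 18.5 and 18.4 CPM and 18.6, 19.3 and 18.5 CPM. HOXA6 read 1.69, 1.35 and 1.82 CPM and 1.47, 1.31 and 0.898 CPM, with overlap. HOXA5 passed with library totals as the only scaling (adjusted p = 0.0410), and HOXA6 without shCtrl replicate 2 (0.0408) or shPRAME replicate 1 (0.0445). The RefSeq span of HOXA3 covers all 3 of these genes on the same strand, so their counts are uncertain to that extent.

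HOXA9, HOXA10 and HOXA11 fell. HOXA9, a leukaemia gene that acts with MEIS1, read 1.42, 1.59 and 1.56 CPM in shCtrl and 1.02, 1.10 and 0.753 CPM in shPRAME (log2 fold change -0.66, SE 0.194, edgeR adjusted p = 0.00537; with DESeq2 the adjusted p was 0.0618). Its GENCODE 29 span overlaps that of HOXA10 on the same strand. HOXA10, a gene of the developing uterus, fell from 18.5, 19.2 and 19.8 to 13.4, 15.1 and 13.2 CPM (log2 fold change -0.46, edgeR adjusted p = 5.35e-06). HOXA11, which patterns the forearm and uterus, fell 4.11-fold from low levels: its counts were 31, 18 and 28 for shCtrl and 6, 4 and 9 for shPRAME (log2 fold change -2.04, SE 0.364, edgeR adjusted p = 7.81e-05).

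HOXA13, the next gene 5′ of HOXA11, rose instead. Its counts were 22, 32 and 15 for shCtrl and 54, 67 and 55 for shPRAME, or 0.651, 0.979 and 0.486 CPM and 1.73, 1.94 and 1.59 CPM (log2 fold change 1.31, SE 0.226, edgeR adjusted p = 5.60e-05). Neither gene overlapped between the groups, and both patterns kept their direction without any single library. HOXA11-AS, an antisense RNA that overlaps the start of HOXA11 in GENCODE 29, counted 12, 17 and 5 for shCtrl and 0, 3 and 1 for shPRAME and was too low to test. HOTTIP, the noncoding RNA beside HOXA13, had 2 counts in shCtrl and 2 in shPRAME.

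The start windows of these neighbours with opposite changes are given in the same form as above, chr7:27185183-27185482, minus strand for HOXA11 and chr7:27200042-27200341, minus strand for HOXA13.
HOXA11: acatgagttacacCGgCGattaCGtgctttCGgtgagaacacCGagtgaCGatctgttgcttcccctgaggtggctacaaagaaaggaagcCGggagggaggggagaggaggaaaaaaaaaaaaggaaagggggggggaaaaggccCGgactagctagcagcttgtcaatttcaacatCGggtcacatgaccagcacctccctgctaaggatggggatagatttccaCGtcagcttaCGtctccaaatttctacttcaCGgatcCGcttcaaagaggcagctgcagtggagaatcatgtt
HOXA13: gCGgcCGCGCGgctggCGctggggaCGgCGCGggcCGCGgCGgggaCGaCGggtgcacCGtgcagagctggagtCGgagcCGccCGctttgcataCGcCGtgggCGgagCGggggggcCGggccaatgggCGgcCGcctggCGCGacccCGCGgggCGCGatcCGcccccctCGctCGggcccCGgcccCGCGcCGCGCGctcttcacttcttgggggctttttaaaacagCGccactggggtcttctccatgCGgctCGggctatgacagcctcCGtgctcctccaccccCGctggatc
HOXA11 holds 13 CG dinucleotides and HOXA13 holds 44, beside the median of 14 over all windows. Neither holds the AGGTCA half-site.

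The noncoding RNAs of HOXA that could be tested both fell. HOTAIRM1, a noncoding RNA known from myeloid cells, stood at 2.96, 3.46 and 2.63 CPM in shCtrl and 1.86, 1.68 and 1.56 CPM in shPRAME (log2 fold change -0.83, SE 0.150, edgeR adjusted p = 9.03e-05). HOXA-AS3, which runs opposite to HOXA5, HOXA6 and HOXA7, went from 1.36, 1.44 and 1.1999 to 0.416, 0.319 and 0.290 CPM, 3.90-fold lower (log2 fold change -1.96, edgeR adjusted p = 1.58e-06). Its span overlaps those genes and HOXA3, and with the use of strand not given their reads cannot be told apart there. Of 18 noncoding RNAs listed for the 4 clusters, 6 were tested. Of these 3 fell (HAGLR, HOXA-AS3 and HOTAIRM1), 1 rose (HOXB-AS1) and 2 did not pass (HOXD-AS2 and HOXC13-AS). These 66.7% that passed stand beside 74.4% of all genes. HOTAIR, the noncoding RNA of HOXC known for its link to Polycomb, had 1 count in each group.

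HOXC (chromosome 12, 53938831 to 54056030) moved both ways between neighbours, with small changes. HOXC10 fell from 35.4, 34.9 and 36.7 CPM in shCtrl to 23.7, 26.2 and 25.3 CPM in shPRAME, 1.42-fold (log2 fold change -0.51, SE 0.0474, edgeR adjusted p = 3.48e-08). HOXC8, a gene of the thoracic body region, rose from 20.6, 18.6 and 20.9 to 24.4, 24.8 and 24.5 CPM (log2 fold change 0.30, edgeR adjusted p = 9.12e-05). HOXC13, the gene of hair and nail keratins, rose from 7.40, 7.37 and 7.95 to 9.44, 9.57 and 9.73 CPM (log2 fold change 0.34, edgeR adjusted p = 8.76e-04). The groups were apart in all 3 genes.

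HOXC9 lay between HOXC10 and HOXC8 in position and in change, at 9.97, 9.58 and 9.57 CPM in shCtrl and 8.995, 8.67 and 8.20 CPM in shPRAME. It missed the threshold (log2 fold change -0.17, adjusted p = 0.0531), although its groups did not overlap, and it passed with limma-voom (0.0409) and with a filter of at least 1 CPM in 3 libraries (0.0437). HOXC6 fell from 25.8, 25.1 and 24.6 to 22.2, 21.9 and 21.1 CPM (log2 fold change -0.21, edgeR adjusted p = 8.24e-04). HOXC5 fell from 1.12, 1.10 and 1.43 to 0.832, 0.812 and 0.695 CPM (log2 fold change -0.64, edgeR adjusted p = 0.0119). HOXC4 rose from 19.6, 18.7 and 18.4 to 20.7, 21.8 and 20.02 CPM (log2 fold change 0.14, edgeR adjusted p = 0.0343). The spans of these 3 genes overlap, as RefSeq starts them at the same base. Their counts are uncertain where a read fits more than 1 of them. In GENCODE, though not in RefSeq, the span of HOXC6 also covers HOXC8 and HOXC9 on the same strand. The counts of HOXC6, HOXC8 and HOXC9 are uncertain to that extent. The HOXC4 call was lost without shCtrl replicate 2 or 3 or shPRAME replicate 1 or 2, and the HOXC5 call without shCtrl replicate 3 (adjusted p up to 0.142 for HOXC4 and 0.0680 for HOXC5). DESeq2 passed neither (adjusted p = 0.131 and 0.110).

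Read across the clusters, paralog group did not fix the direction. In group 9 HOXB9 rose and HOXA9 fell, while HOXC9 and HOXD9 did not pass. In group 4 HOXB4 and HOXC4 rose and HOXD4 fell. In group 10 HOXA10 and HOXC10 fell and HOXD10 did not pass. All 4 genes of group 13, the most 5′, passed, as 74.4% of all genes did: HOXA13, HOXD13 and HOXC13 rose and HOXB13 fell. Over groups 1 to 8, 8 of 21 tested genes rose and 7 fell (37.7% and 36.8% of all genes did). The changes of at least 2-fold there were 3 falls and no rise (8.43% and 10.1% of all genes). Over groups 9 to 13, 4 of 12 rose and 5 fell. Their median size of the log2 fold change was 0.48, beside 0.30 in groups 1 to 8 and 0.38 over all genes.

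Protein-coding neighbours outside the clusters were read beside them. Of the 5 nearest on each side of each cluster, 36 of 40 were tested, of which 14 rose and 16 fell, where 37.7% of all genes rose and 36.8% fell. Around HOXB 6 of 9 rose and 2 fell (median log2 fold change 0.18, beside 0.29 in HOXB), and around HOXD 7 of 9 fell and 1 rose (median -0.17, beside -0.54 in HOXD). Around HOXA 2 of 9 rose and 5 fell, and around HOXC 5 of 9 rose and 2 fell. The nearest tested neighbour beyond HOXD1, the mitochondrial import gene MTX2, fell from 36.5 ± 0.984 to 28.2 ± 0.332 CPM, and beyond HOXD13 LNPK did not pass, at 43.2 ± 1.99 and 43.4 ± 0.749 CPM. Beyond HOXB13 TTLL6, a tubulin-modifying enzyme, rose from 0.492 ± 0.0815 to 3.43 ± 0.320 CPM and CALCOCO2, an autophagy receptor, fell from 139.1 ± 5.59 to 114.4 ± 2.00 CPM. Over all tested genes within 5 Mb, HOX genes left out, the median log2 fold change was 0.15 around HOXB, -0.15 around HOXD1, -0.17 around HOXA and -0.02 around HOXC4. Against those medians HOXB3 no longer passed (log2 difference 0.06), HOXA5 passed as higher (0.27) and HOXB8 as lower (-0.19), and the numbers of HOX genes called stayed at 12 higher and 12 lower. This comparison with the surroundings was chosen after seeing the data.

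**Figure D5:**
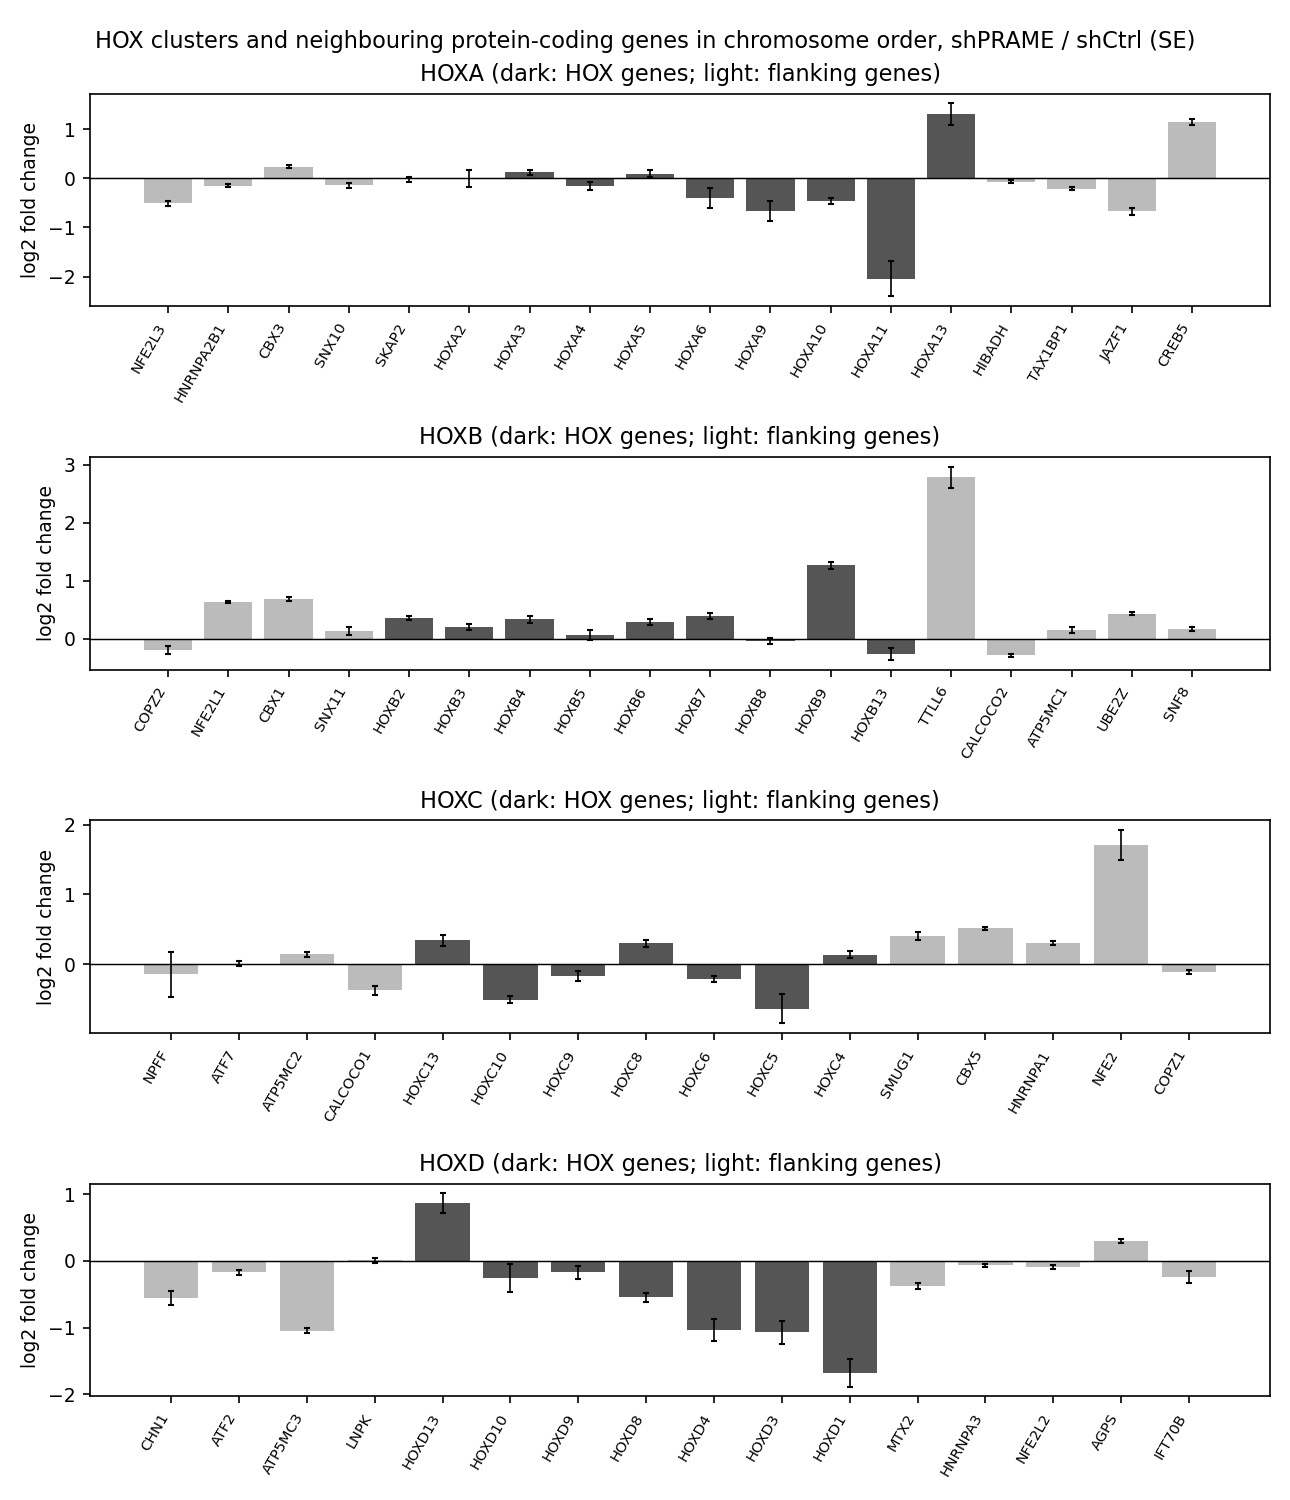
Log2 fold change (shPRAME over shCtrl, bars from 0, error bars SE) of tested HOX genes (dark) and of tested genes among the 5 nearest protein-coding neighbours on each side (light), in chromosome order, with not every HOX gene drawn. HOXD1 (-1.67) and HOXB9 (1.27) exceed their nearest tested HOX neighbours, and the neighbour TTLL6 beyond HOXB13 reaches 2.79.

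Of 11 TALE homeodomain genes listed here, all were tested, 5 rose and 4 fell (74.4% of all genes passed). The list is not the whole TALE class, and beside HOX cofactors it holds TGIF1 and TGIF2, which are not HOX cofactors. The median size of change over the list was 0.67 beside 0.34 for HOX genes and 0.38 for all genes. PBX3, a DNA-binding partner of HOX proteins, rose from 14.5, 16.8 and 15.9 CPM in shCtrl to 29.3, 30.7 and 29.3 CPM in shPRAME (log2 fold change 0.92, edgeR adjusted p = 1.54e-10). MEIS1 rose from 2.95 ± 0.302 to 9.13 ± 0.375 CPM and PKNOX2 from 0.939 ± 0.124 to 4.19 ± 0.161 CPM (edgeR adjusted p = 2.12e-10 and 6.12e-10). MEIS3 fell from 16.3 ± 0.671 to 5.10 ± 0.326 CPM (edgeR adjusted p = 3.01e-12), and TGIF1, a TALE repressor, rose from 31.3 ± 0.313 to 49.8 ± 2.36 CPM (edgeR adjusted p = 1.46e-10). Of 13 homeobox genes related to the HOX family, such as CDX, EVX and GBX, 2 were tested: MEOX2 rose from 246.9 ± 4.67 to 359.1 ± 2.17 CPM and MNX1 fell from 2.24 ± 0.542 to 0.376 ± 0.203 CPM.

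Of 30 genes of Polycomb complexes, all tested, 11 rose and 10 fell, none at least 2-fold (median log2 fold change 0.04). These 70% that passed are near the 74.4% of all genes, of which 37.7% rose and 36.8% fell. CBX2, a reader of the Polycomb mark, rose from 27.8 ± 0.129 to 40.6 ± 0.511 CPM and EPOP, a PRC2 accessory protein, from 22.5 ± 1.05 to 36.3 ± 0.916 CPM. RBBP7, a histone-binding subunit, fell from 207.8 ± 2.91 to 145.5 ± 2.74 CPM and CBX6 from 84.9 ± 0.852 to 65.3 ± 0.767 CPM. Of 18 genes in a list of trithorax and H3K27 demethylase genes, all tested, 11 rose and 6 fell (median 0.15). The same 37.7% and 36.8% of all genes did. The list also holds DOT1L, MLLT1, MLLT3, AFF1 and AFF4, which are of neither kind. PSIP1, a partner of the MLL complex, rose from 77.1 ± 3.59 to 140.7 ± 3.37 CPM and MLLT1 from 106.4 ± 0.979 to 142.8 ± 0.862 CPM. AFF4 fell from 306.1 ± 8.81 to 203.4 ± 0.771 CPM and RBBP5 from 79.5 ± 1.45 to 52.7 ± 1.40 CPM.

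Of 20 genes of the retinoic acid pathway, which induces 3′ HOX genes in embryos, 13 were tested, of which 7 rose and 4 fell (37.7% and 36.8% of all genes did). ALDH1A3, which makes retinoic acid, rose from 350.5 ± 3.74 to 724.7 ± 7.02 CPM and DHRS3, which reduces retinaldehyde back to retinol, from 46.3 ± 1.70 to 77.2 ± 1.63 CPM. The receptors went both ways. RXRG fell from 61.8 ± 3.27 to 10.2 ± 0.767 CPM and RARG from 92.2 ± 2.97 to 48.2 ± 0.760 CPM. RXRA also fell, from 28.7 ± 1.28 to 20.6 ± 1.40 CPM. RARB rose from 19.6 ± 1.58 to 29.7 ± 0.281 CPM and RXRB from 23.2 ± 1.34 to 34.0 ± 0.359 CPM, while RARA did not pass. Among boundary factors that divide HOX clusters into domains, CTCF rose from 101.1 ± 1.43 to 134.9 ± 3.05 CPM and RAD21, a cohesin subunit, from 582.7 ± 24.2 to 985.9 ± 4.26 CPM, while the cohesin loader NIPBL fell from 158.7 ± 5.86 to 119.2 ± 1.63 CPM and STAG2 from 284.6 ± 8.92 to 228.2 ± 3.20 CPM. Over the 9 CTCF and cohesin genes 6 rose and 3 fell, beside 37.7% and 36.8% of all genes.

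Markers of other cell types, whose HOX sets can differ from those of melanoma cells, were read beside these results. The 9 fibroblast markers summed to between 112.5 and 116.5 CPM in shCtrl libraries and between 88.1 and 95.3 CPM in shPRAME libraries. Of 7 tested 5 rose and 2 fell (37.7% and 36.8% of all genes did). PDGFRB fell from 64.3 ± 1.86 to 17.4 ± 1.32 CPM and FAP from 46.1 ± 1.202 to 26.99 ± 0.771 CPM, while COL1A2, without a count in shCtrl, stood at 21.6 ± 1.31 CPM in shPRAME. The 7 leukocyte markers summed to between 43.1 and 45.4 CPM and between 72.4 and 74.3 CPM, of which CD68 made up 43.9 ± 1.16 and 70.7 ± 0.767 CPM and LYZ 0.0707 ± 0.0437 and 1.31 ± 0.155 CPM; PTPRC, without a count in shCtrl, stood at 0.925 CPM in shPRAME, with CD3E at 0. The 6 endothelial markers summed to between 0.292 and 0.947 CPM and between 3.01 and 3.85 CPM, with TEK at 0.0309 ± 0.00144 and 2.79 ± 0.296 CPM, KDR at 0.293 ± 0.198 and 0.335 ± 0.123 CPM, and CDH5 and CLDN5 at 0. The 6 keratinocyte markers summed to between 27.7 and 29.6 CPM and between 23.2 and 24.4 CPM, nearly all KRT10 (28.2 ± 1.08 and 23.4 ± 0.613 CPM) with KRT14 at 0.326 ± 0.128 and 0.209 ± 0.0205 CPM and KRT5, KRT1 and TP63 at 0. The part of such cells in the HOX results was not tested.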

How the data were processed

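PolyA RNA of 3 shCtrl and 3 shPRAME libraries was sequenced as paired reads of 150 bases, per the labels. The deposited files hold raw counts per NCBI gene identifier, whole numbers that were not normalized. Tools named in the submitters' processing notes are Salmon, STAR and fastp, and the genome is called both hg38 and GRCh38. Versions, roles, settings and the use of strand in counting were not given in the sources used here. Each file had 40929 rows; 34 rows with a repeated identifier were summed, which left 40895 identifiers, of which 40789 matched a RefSeq gene (GRCh38.p14).

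All genes entered 1 quasi-likelihood fit of the counts (edgeR 4.0.16, R 4.3.3; filterByExpr, TMM, 2-sided, Benjamini-Hochberg over 15954 genes, adjusted p threshold 0.05). Biological coefficient of variation was 3.11%. CPM are scaled by TMM, and RPKM divide them by the longest GENCODE 29 transcript. Cluster sums had exact permutation tests. Alternatives were RLE size factors, library totals, other filters, a test against a fold of 1.2, a replicate block, limma-voom (3.58.1), DESeq2 (1.42.0), leaving out each library, and removal of the median change within 5 Mb. The last was chosen after seeing the data. In data simulated for the comparison (15954 genes), where 50 genes were changed at each size, edgeR found 26 at 1.2-fold, 36 at 1.5-fold, 40 at 2-fold and 50 at 4-fold. It also called 7 unchanged genes. The simulation changed 200 genes in all, whereas 74.4% of genes passed in the deposited data. Its recovery therefore need not be that of the deposited data.

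The members and lists were chosen with earlier results of these data known. Some items are not reported here, though counts, sums and medians include them; otherwise HOX genes at a mean of at least 1 CPM are given in every library; in each pathway list the 2 rising and 2 falling genes of smallest adjusted p at that level are named, and in each marker list the 2 most abundant. MEIS1, PKNOX2, COL1A2, PTPRC, RARA, RARB, RXRA and RXRB were named after their values were seen.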

Additional observations from a re-analysis of the deposited data

How the results depend on the processing

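The edgeR counts of 12 HOX genes higher and 12 lower were 12 and 12 with RLE size factors, a filter of at least 1 CPM in 3 libraries and removal of the regional median (chosen after seeing the data), 13 and 10 with library totals, 13 and 13 without a filter, 12 and 13 with limma-voom and 10 and 8 with DESeq2. Tested against a fold of 1.2 they were 5 and 9, as that test asks for more than a difference from 0. Leaving out 1 library gave 10 to 12 higher and 10 to 13 lower. The calls of HOXA13, HOXB2, HOXB7, HOXB9 and HOXD13 (higher) and of HOXA10, HOXA11, HOXC10, HOXD1, HOXD3, HOXD4 and HOXD8 (lower) held under every alternative that could test them, and no gene that passed changed direction.

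Replicate numbers did not pair the libraries: same-numbered libraries had correlations of -0.0589, -0.119 and -0.0999 in their deviations from the group means. With a replicate block 12 HOX genes were higher and 12 lower, and 5868 and 5735 of all genes, beside 6008 and 5867 without it.

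Of the 9 genes that did not pass, 4 changed sign under some alternative. Log2 fold changes of HOXA2 ranged from -0.20 to 0.14 without 1 library and were -0.000146 with the replicate block, -0.006454 with limma-voom, and they were below 0 without shCtrl replicate 2 or 3 or shPRAME replicate 2. HOXB5 ranged from -0.0103 (without shPRAME replicate 1) to 0.15 and HOXB8 from -0.0714 to 9.99e-04 (without shPRAME replicate 3), and HOXB8 stood at 0.0131 with library totals. With the regional median removed, HOXA4 stood at 0.0168 and HOXB5 at -0.0829.

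With library totals as the only scaling the median log2 fold change of all genes was 0.06, and the log2 ratios of the summed clusters were -0.0100 for HOXA, 0.40 for HOXB, -0.0379 for HOXC and 0.15 for all HOX genes, beside -0.06, 0.35, -0.09 and 0.10. Without 1 library they ranged from -0.09 to -0.04 for HOXA, 0.34 to 0.37 for HOXB, -0.11 to -0.08 for HOXC, -0.53 to -0.45 for HOXD and 0.09 to 0.11 for all HOX genes. Depth limits the tested genes with fewer than 100 counts in every library, HOXA6, HOXA9, HOXA11, HOXA13, HOXC5, HOXD1, HOXD10 and HOXD13, from 4 counts (HOXA11) to 92 (HOXD13), and leaves 6 HOX genes without a test.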
